A study of Drosophila melanogaster with 3 samples.

Results

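The neuronal differentiation and synapse genes described here are 10 *Drosophila melanogaster* genes, elav, fne, scrt, nerfin-1, brp, Syt1, nSyb, para, nrv3 and futsch, of 13945 protein-coding genes in the annotation. They were chosen by name for their roles in neurons, with earlier results of these data known. All peak summits (the bases of highest signal) inside each gene or within 2 kb of either end, called the gene's window here, were taken. The 10 windows held 22 of the 7434 summits of the thresholded list described below, and 9 of the 10 genes had at least 1.

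The protein followed was CG13894, known only by its gene number, tagged at its C-terminus with green fluorescent protein (GFP) in 1 transgenic fly line. Whole embryos of 2 to 24 hours, of sex not collected, gave sonicated chromatin for immunoprecipitation with an anti-GFP antibody and sequencing (ChIP-seq). All 3 biological replicates, numbered 1 to 3, belong to this 1 group, so no condition was compared with another and the comparisons run between genes and positions. Expression was not measured, so the presence of neurons could not be checked against markers, and in whole embryos a site bound in few cells and a site bound weakly in many cannot be told apart.

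Each replicate, and the replicates pooled, gave a list of 30000 peaks on dm6. A thresholded list, named for a cut on the irreproducible discovery rate, a measure of how well peak ranks repeat between replicates, holds 7434 peaks. All of them are also in the pooled list, with the same summit and signal. The 22 summits described here had the same rank in both lists. Of the 7434 peaks, 79 were among the 7434 strongest of no replicate, so a place in the list does not show that a peak repeated. Rank 1 is the peak with the highest signal value, the authors' own measure of strength. Signal scales differed between lists, so a replicate's signal is also given as a fold of the median of its own 7434 strongest peaks (145, 112 and 107 in replicates 1, 2 and 3). Depth is unknown because no list gives read counts, and absence from a list of 30000 peaks does not show absence of binding.

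Neurons of the fly embryo leave the cell cycle and switch on RNA-binding proteins and transcription factors that hold the neuronal state. They later build axons and synapses. ELAV and its relative FNE bind RNA in neurons and change splicing and the choice of polyadenylation site, which gives many neuronal transcripts longer 3′ UTRs. Scratch (scrt) and Nerfin-1 are zinc finger transcription factors of differentiating neurons. Bruchpilot (brp) builds the active zone where vesicles dock, Synaptotagmin 1 (Syt1) senses calcium for release, and neuronal Synaptobrevin (nSyb) is the vesicle SNARE protein. Paralytic (para) is the voltage-gated sodium channel of action potentials, Nervana 3 (nrv3) is a beta subunit of the sodium pump, and Futsch is a microtubule-binding protein of the MAP1B family in axons and dendrites.

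To show the letters at sites of differing strength and place, the 101 bases centred on 7 of these summits are printed here, the strongest of elav (2), scrt, Syt1, nSyb, para and futsch. They were read from the plus strand of the Release 6 assembly (dm6). They are the strongest elav summit upstream of its start site (chrX:523423-523523), the strongest in elav's intron (chrX:522570-522670) and the summit beyond the 3′ end of scrt (chr3L:3995732-3995832). The next are the summit inside Syt1 (chr2L:2797336-2797436), the one beyond the 3′ end of nSyb (chr3L:1628407-1628507), the strongest in para (chrX:16531312-16531412) and the summit at the futsch promoter (chrX:1411404-1411504). Capitals mark copies of TTCGGA or its reverse complement TCCGAA, which form the longest run of letters shared by any pair of sites outside brp. The brp sites were left out of that choice and are not printed.
elav, rank 108: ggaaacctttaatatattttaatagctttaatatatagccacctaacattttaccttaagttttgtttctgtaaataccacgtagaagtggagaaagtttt
elav, rank 717: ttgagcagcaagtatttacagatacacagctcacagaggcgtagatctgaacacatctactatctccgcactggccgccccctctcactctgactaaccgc
scrt, rank 869: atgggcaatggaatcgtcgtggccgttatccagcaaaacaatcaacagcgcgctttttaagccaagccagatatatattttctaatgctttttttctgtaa
Syt1, rank 180: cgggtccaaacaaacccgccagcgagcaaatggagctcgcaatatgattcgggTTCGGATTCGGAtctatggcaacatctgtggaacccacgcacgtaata
nSyb, rank 184: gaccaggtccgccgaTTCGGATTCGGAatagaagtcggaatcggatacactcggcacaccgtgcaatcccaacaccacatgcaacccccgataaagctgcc
para, rank 885: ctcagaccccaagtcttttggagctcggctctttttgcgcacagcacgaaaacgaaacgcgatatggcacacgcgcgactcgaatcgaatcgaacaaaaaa
futsch, rank 2747: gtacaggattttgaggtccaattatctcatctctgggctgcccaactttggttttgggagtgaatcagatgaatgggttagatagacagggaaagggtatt

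Binding at these genes was uneven, with 4 strong summits and 18 of moderate or low strength. The strong ones, at brp (rank 101), elav (rank 108), Syt1 (rank 180) and nSyb (rank 184), had signals above 1000, which 18.2% of the 22 summits and 5.78% of the list (430 summits) did. Only the elav summit lay within 500 bp of a transcription start site (TSS) of the gene in whose window it fell. The median signal of the 22 was 374, beside 338 in the whole list, and 13 of them were in the stronger 50% of the list.

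**Figure D1:**
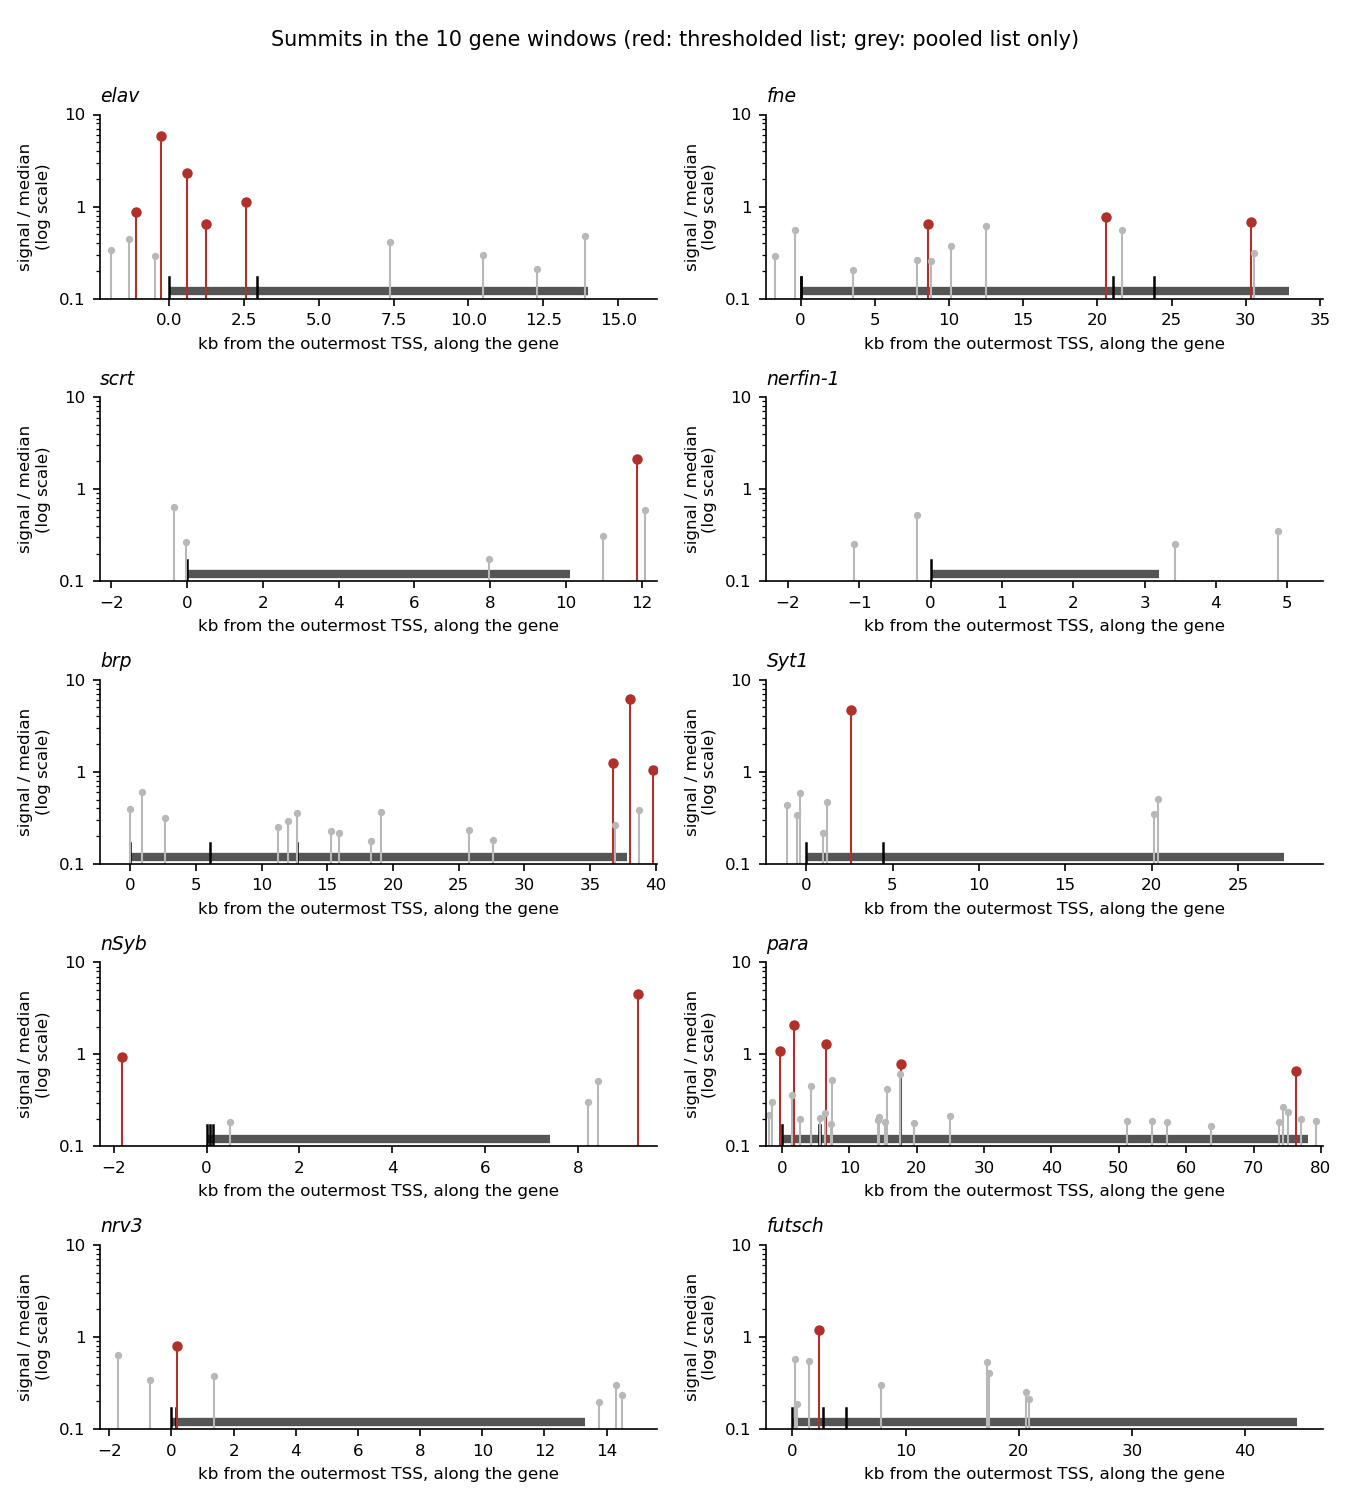
Summits in the windows of the 10 genes, by distance in kb from the outermost TSS along the gene (x axis) and signal as a fold of the thresholded list's median (y axis, log scale). Red stems are thresholded summits, grey stems are summits of the pooled list only, the grey bar is the gene and black ticks are its TSSs. The highest stems stand upstream of elav, inside Syt1 and beyond the 3′ ends of brp and nSyb.

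elav (FBgn0260400, X, 509235 to 523226, minus strand, 14 kb) carried the densest binding of the 10, with 5 thresholded summits, or 0.278 per kb of its window. As many were found in 4.41% of coding genes with spans of 5 to 20 kb and in 2.65% of all coding genes. The replicates' own 7434 strongest peaks gave 6, 5 and 4 summits there (5 ± 1, SD, n = 3).

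The strongest elav summit, at 523473, lay 247 bp upstream of the gene's first TSS, which is also the TSS of the noncoding RNA gene lncRNA:enrr, and inside an intron of the overlapping arginase gene arg. Its signal in the thresholded list was 1962, and its signals were 787, 609 and 570 in replicates 1, 2 and 3, at ranks 119, 112 and 115. These are 5.4 ± 0.0742 times the replicate median (SD, n = 3). The replicates thus placed it almost identically, and their summits fell within 9 bp of each other.

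The second elav summit, at 522620 (rank 717, signal 774), lay in an intron, 606 bp downstream of the same start. It ranked 892, 710 and 666 in the 3 replicates, at 2.15 ± 0.154 times the median. The remaining 3 were weaker and less even. The summit at 520660 (rank 3023) lay 375 bp upstream of elav's second TSS, at 520285, and had signals of 174, 173 and 64.3, so replicate 3 was low. The summit at 524317 (rank 4576) lay 1091 bp upstream of the first TSS in the same stretch of enrichment as the strongest one, and ranked 2501, 6354 and 1468. The summit at 521974 (rank 7282) lay 1252 bp downstream, near the end of the thresholded list, and ranked 7866, 4069 and 20547. All 5 elav summits therefore lay upstream of the gene's second TSS, and none lay in the 3′ part of the gene.

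fne (FBgn0086675, X, 12917477 to 12950417, plus strand, 32.9 kb), the elav relative, had 3 thresholded summits, and all 3 were weak. The best, at 12938050 (rank 5673, signal 261), lay 467 bp upstream of the gene's internal TSS at 12938517. Its signals were 111, 78.8 and 28, at ranks 5775, 6714 and 22349. Replicates 2 and 3 listed a stronger summit nearby, at 12937907 (signal 109, rank 3886) and 12937928 (signal 67, rank 8007), which lay 610 and 589 bp upstream of that TSS, outside the 500 bp limit. Replicate 3 was the lowest at each of the 3 summits, and had 0 summits in the window among its 7434 strongest peaks, where replicates 1 and 2 had 4 and 3. The other fne summits lay at 12947823 in the 3′ UTR (rank 6734) and at 12926054 in an intron (rank 7290), 8570 bp from the nearest TSS. As many summits as at fne were found in 38.5% of coding genes with spans of 20 to 50 kb.

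scrt (FBgn0004880, 3L, 3983896 to 3994003, plus strand, 10.1 kb) had 1 thresholded summit, and it was not at the promoter. It lay at 3995782 in intergenic sequence, 1779 bp past the 3′ end of scrt and 7692 bp from the nearest TSS, that of CG14985. Its signals were 313, 265 and 130, at ranks 748, 584 and 2590, or 1.91 ± 0.614 times the replicate median. Replicate 3 was again the lowest, but all 3 had the site among their strongest peaks. At the scrt TSS itself the pooled list held a summit at rank 7513 (signal 215, 356 bp upstream), just below the threshold, at ranks 7118, 11254 and 7438 in the replicates. nrv3's strongest summit below the threshold was as close, at rank 7509, while the lowest thresholded summits of the 10 genes were those of elav (rank 7282) and fne (rank 7290).

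nerfin-1 (FBgn0028999, 3L, 909112 to 912319, plus strand, 3.21 kb) was the only one of the 10 genes with no thresholded summit in its window. Among coding genes with spans under 5 kb, 32.3% had one. The pooled list held 4 summits in the window, the best 186 bp upstream of the TSS at rank 9757 (signal 177). In the replicates that peak had ranks of 8577, 15860 and 8344, so nerfin-1 had listed signal at its promoter in every replicate, but in none of them among the 7434 strongest.

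brp (FBgn0259246, 2R, 9503765 to 9541565, plus strand, 37.8 kb) carried the strongest single summit of the 10 genes, and it lay past the gene's 3′ end. The summit, at 9541814 (rank 101, signal 2071), fell 249 bp beyond the end of brp and 133 bp before the end of CG1888, a gene that runs towards brp, in the 381 bp between them. It had signals of 878, 625 and 591, at ranks 96, 103 and 108, or 5.72 ± 0.288 times the median, and its position moved by 11 bp over the replicates. Weaker summits stood on either side of it: one in the brp 3′ UTR at 9540495 (rank 2501; ranks 2827, 1744 and 3320) and one in the CG1888 3′ UTR at 9543558 (rank 3449; ranks 2907, 2388 and 5059). This cluster at the convergent 3′ ends was found in all 3 replicates' strongest peaks. The window's edge decides the last of them, which lay 1993 bp past the end of brp.

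At the brp start sites the signal was low. The best pooled summit there, 14 bp upstream of the first TSS, which begins 12 annotated transcripts, had rank 13797 (signal 133), and no pooled summit lay within 500 bp of the second TSS. The strongest below-threshold summit in the gene, at 9504643, stood 878 bp downstream of the first TSS at rank 8224.

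Syt1 (FBgn0004242, 2L, 2772327 to 2799979, minus strand, 27.7 kb) had 1 thresholded summit, at 2797386 (rank 180, signal 1575). It lay inside the gene between its start sites, 1842 bp upstream of the second TSS at 2795544, and 446 bp upstream of the start of lncRNA:CR43821, a noncoding RNA gene within Syt1 on the opposite strand. By the 500 bp rule it was therefore counted as a promoter summit of the noncoding gene and not of Syt1. Which gene it acts on was not tested. Its signals of 636, 498 and 448, at ranks 185, 176 and 185, came to 4.34 ± 0.146 times the median. Its rank varied by less than that of any weaker summit. The SD of its fold was not the smallest: most weaker summits had a larger one, but the para summit of rank 885 had 0.14. At the Syt1 first TSS, the start of 7 annotated transcripts, the best pooled summit lay 356 bp upstream at rank 8439 (signal 198). The best within 500 bp in the replicates ranked 7186, 7226 and 8429.

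nSyb (FBgn0013342, 3L, 1630348 to 1637752, minus strand, 7.41 kb) had 2 thresholded summits in its window, and both stood at start sites of its neighbours. The strong one, at 1628457 (rank 184, signal 1544), lay 80 bp upstream of the TSS of CG13928 within the gamma-glutamyl carboxylase gene GC, 1891 bp past the 3′ end of nSyb. It had signals of 707, 466 and 401, at ranks 150, 199 and 246, or 4.26 ± 0.57 times the median. The weak one, at 1639582 (rank 4110), lay 129 bp upstream of Bgb, which encodes a partner of Runt-family transcription factors, and also within 500 bp of the TSS of the methyltransferase-family gene Mettl2. Its ranks were 5941, 2366 and 8181.

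The nSyb start sites themselves had the weakest listed signal of the 10 genes. Only 1 pooled summit lay within 500 bp of any of the 3 TSSs, at rank 27994 (signal 61.8). Replicate 1 listed none there, and replicates 2 and 3 listed summits at ranks 18309 and 26739.

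para (FBgn0285944, X, 16455027 to 16533096, minus strand, 78.1 kb), the longest of the 10 genes, had 5 thresholded summits, which 38.8% of coding genes of 50 kb and over matched or passed. The strongest, at 16531362 (rank 885, signal 709), lay in an intron 1734 bp downstream of the first TSS. Its signals of 303, 220 and 194, at ranks 807, 890 and 1129, came to 1.95 ± 0.14 times the median. A second stood in an intron at 16526561 (rank 2337), 853 bp downstream of the third TSS, where 58 annotated transcripts begin, and ranked 2553, 1871 and 4495. The para promoter summit, at 16533356 (rank 3211, signal 368), lay 260 bp upstream of the first TSS, where 1 annotated transcript begins, and ranked 2762, 4161 and 4360. These 3 summits at the 5′ end were among the strongest peaks of all 3 replicates.

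The other para summits were weaker. That at 16515419 (rank 5517) lay in an intron with Cnx14D, a calnexin gene, as its nearest TSS at 9996 bp, and ranked 4011 and 11126 in replicates 1 and 3, while replicate 2 did not list it. That at 16456799 (rank 7206) lay in the 3′ UTR, 7647 bp from the nearest TSS, that of the translation factor gene eIF4H1, and ranked 5950, 10500 and 9550. At the para TSS used by most annotated transcripts, the pooled list held only a summit at rank 25627 (signal 69.4).

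nrv3 (FBgn0032946, 2L, 21380000 to 21393319, plus strand, 13.3 kb) had 1 thresholded summit, at 21380167 (rank 5386, signal 270), 34 bp downstream of its second TSS. The signals at that summit were 75.8, 119 and 81.1, at ranks 10173, 3259 and 6028, or 0.782 ± 0.274 times the median. Replicate 1 was thus low there and replicate 2 high. Replicate 1 also listed a stronger summit nearby, at 21379984 (signal 86.3, rank 8479), 16 bp upstream of the first TSS. The thresholded summit was the only one of the genes' own promoter summits within 200 bp of a TSS.

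futsch (FBgn0259108, X, 1409069 to 1453686, plus strand, 44.6 kb) had 1 thresholded summit, at 1411454 (rank 2747, signal 400), 272 bp upstream of the middle of its 3 TSSs. It had signals of 172, 78.8 and 133, at ranks 2661, 6711 and 2467, or 1.04 ± 0.294 times the median. Replicate 2 was the lowest at that summit, but listed a stronger one at rank 2196 within 500 bp of the same TSS. The outermost futsch TSS had a pooled summit at rank 8639, and the last TSS had none.

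**Figure D2:**
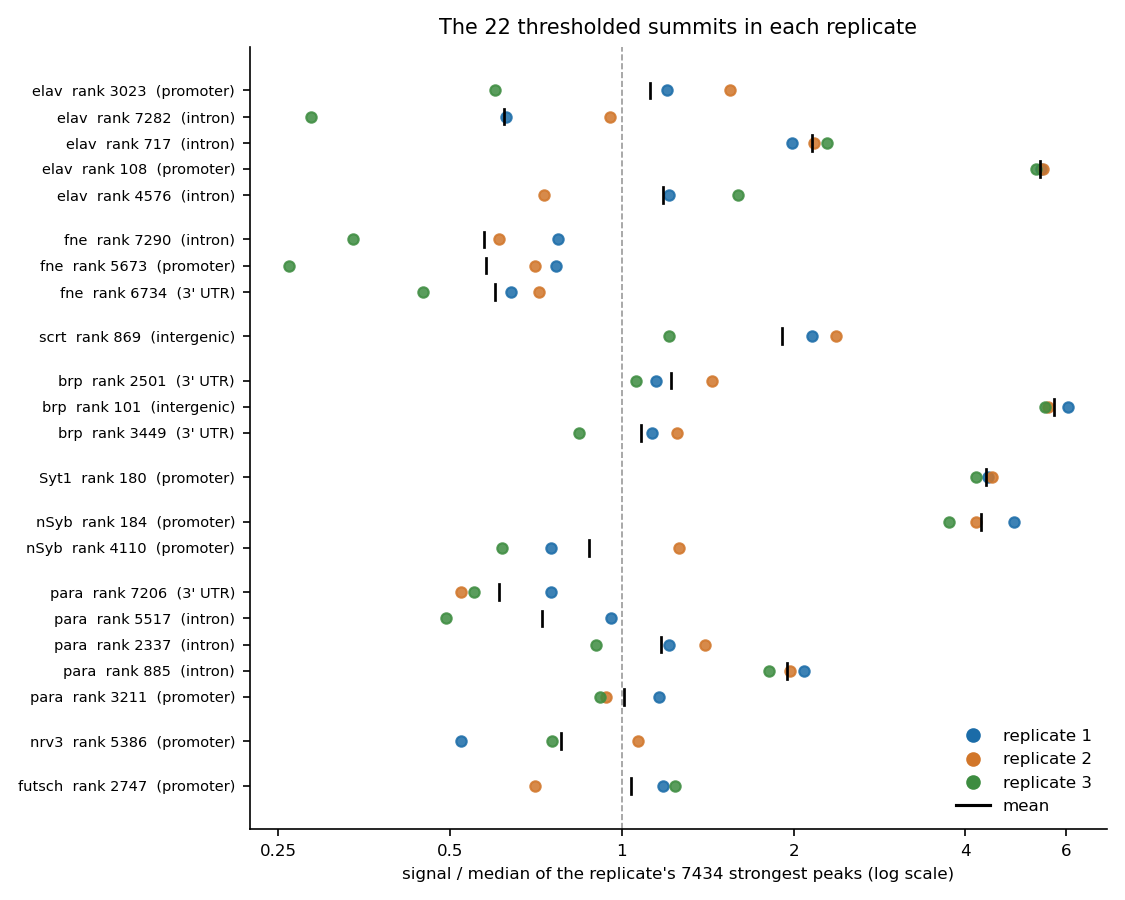
The 22 thresholded summits (one line each, by gene, rank and class) with each replicate's signal as a fold of the median of its 7434 strongest peaks (x axis, log scale). Coloured points are replicates 1 to 3 and black bars their mean. The 4 strong summits lie near 4 to 6. Their replicates lie close together at elav, Syt1 and brp and spread wider at nSyb (4.87, 4.17 and 3.74). The fne summits lie below 1 in every replicate.

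As a group the 22 summits repeated between replicates about as often as the whole list. Of the 22, 13 (59.1%) lay in the strongest peaks of all 3 replicates, beside 60.6% of the list, 4 lay in those of 2 replicates and 5 in those of 1. Allowing any listed peak, 21 (95.5%) were found in all 3 replicates, beside 93.6% of the list. The summit moved by a median of 61 bp over the replicates, beside 50 bp in the list.

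Thresholded binding within 500 bp of a gene's own TSS was found for 5 of the 10 genes: elav, fne, para, nrv3 and futsch. Over all coding genes 22.8% were bound this way, but the 10 genes are long, with a median span of 20.8 kb against 2.17 kb, and the share is higher in long genes. It was 17.2% under 5 kb, 35.5% from 5 to 20 kb, 49.4% from 20 to 50 kb and 48.2% above. Beside these shares stand 0 of 1 (nerfin-1), 2 of 4 (elav and nrv3, but not scrt or nSyb), 2 of 4 (fne and futsch, but not brp or Syt1) and 1 of 1 (para). Set against genes of like span, the 10 were thus bound at promoters about as often as other genes.

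The replicates' own strongest peaks gave 6, 6 and 4 genes bound at the promoter (5.33 ± 1.15, SD, n = 3). elav, para and futsch were bound in all 3, fne in replicates 1 and 2, nrv3 in replicates 2 and 3, Syt1 in replicates 1 and 2, and scrt in replicate 1. When a summit also had to be among the strongest peaks of the remaining replicates, the count was 4 without replicate 1 (fne lost), 3 without replicate 2 (fne and nrv3 lost) and 4 without replicate 3 (nrv3 lost). The share of all coding genes then fell to 17.5%, 17.8% and 17.6%. The distance matters as well: within 200 bp only nrv3 was bound, beside 18.1% of coding genes, and with 1 TSS per gene, the outermost, elav, para and nrv3 were, beside 20.5% of coding genes.

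In the pooled list, which also holds the peaks below the threshold, all 10 genes had a summit within 500 bp of a TSS, as 38.5% of coding genes did. The shares by span were 30.4%, 56.3%, 80% and 77.9% from the shortest class to the longest. The pooled ranks of the genes' best promoter summits ran from 108 at elav to 27994 at nSyb. The order was elav, futsch, para, nrv3, fne, scrt, Syt1, nerfin-1, brp and nSyb. elav stood apart from the rest in every replicate, and futsch ranked above para in each. The ranks of nrv3 overlapped those of para over the replicates, as did those of fne, scrt, Syt1 and nerfin-1 with each other.

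**Figure D3:**
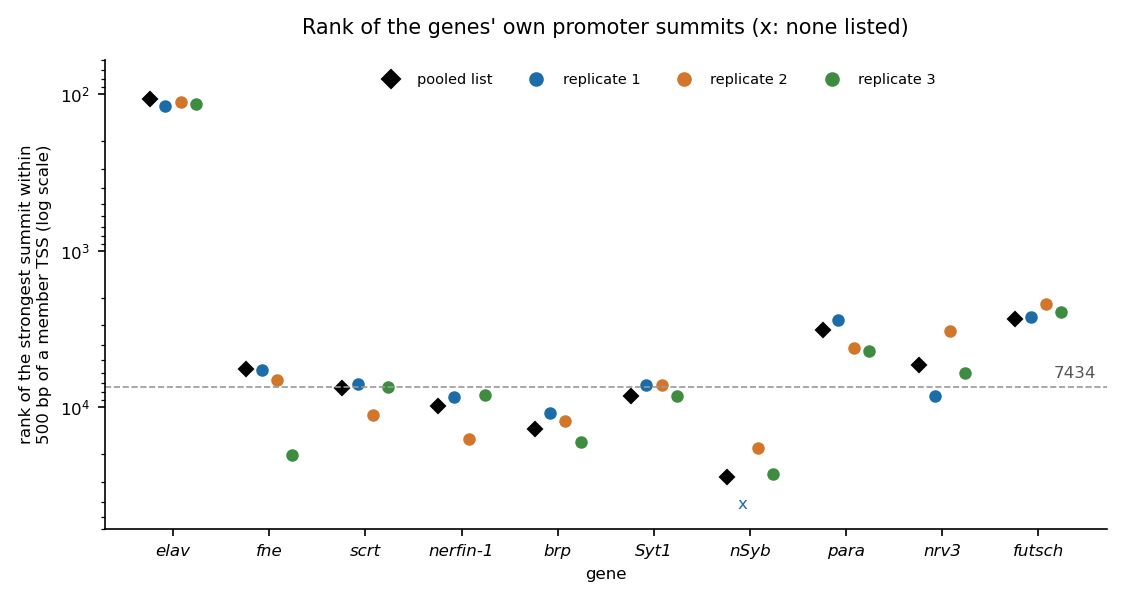
Rank (y axis, log scale, strongest at the top) of the strongest summit within 500 bp of any TSS of each gene, in the pooled list (black) and in replicates 1 to 3 (coloured); a cross marks a replicate with none listed. The dashed line is rank 7434, the length of the thresholded list. elav lies near rank 110 in every list, and nSyb lies far below the line.

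Any thresholded summit in the window was found for 9 of the 10 genes, beside 39.6% of all coding genes. In the span classes the genes gave 0 of 1 beside 32.3%, 4 of 4 beside 54.5%, 4 of 4 beside 76.3% and 1 of 1 beside 84.4%. The replicates' strongest peaks gave 9, 9 and 8 genes, and 27, 26 and 17 summits (23.3 ± 5.51). The windows together cover 309 kb, and the 22 summits come to 0.0712 per kb, beside 0.0556 per kb over the chromosome arms. The arms include sequence far from genes, so windows of other genes are the closer comparison. Averaged gene by gene, the 10 windows held 0.0848 summits per kb, beside 0.0783 over all coding genes. By span class, coding genes averaged 0.0776, 0.0865, 0.0725 and 0.0506 from the shortest to the longest. The summits are not all the genes' own: 13 lay nearest to a TSS of the gene, and 9 nearest to that of another gene. Without the 2 kb flanks, 14 summits in 7 genes were left (0.052 per kb), beside 16% of coding genes with a summit, since all those of scrt and nSyb and the strongest of elav and brp lay outside the gene. Leaving out replicate 1, 2 or 3 left 14, 13 and 16 summits, and fne lost all of its summits without replicate 1 or without replicate 2.

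By position, 9 of the 22 summits (40.9%, 95% Wilson interval 23.3 to 61.3) lay within 500 bp of a TSS of any gene, beside 43.6% of the whole list. The replicates' strongest peaks in the windows gave 42.7% ± 3.01. Such positions make up 9.09% of the bases in the windows, so promoter summits were dense there as they are in the whole list. Introns held 7 summits (31.8%), beside 38.2% of the list and 51.2% of the window bases. Intergenic sequence held 2 (9.09%), beside 15.2% of the list. Coding exons held 0, with 14.5% of the window bases, and held 0.525% of the list.

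The 3′ UTR was the class in which these windows stood apart from the list in share, with 4 summits (18.2%, Wilson interval 7.31 to 38.5) beside 1.12% of the list. The windows hold more of this sequence: 17.2% of their bases are 3′ UTR, beside 4.44% of the arms. A summit in the gene's own 3′ UTR, away from promoters, was found at 3 of the 10 genes, fne, brp and para, beside 0.545% of all coding genes and 2.88% of the 902 coding genes with 2 kb or more of annotated 3′ UTR. Of the 10, 9 have that much, from 3025 bases at nSyb to 14315 at para, with 1612 at nerfin-1, beside a median of 215 over all coding genes. The 2 kb limit lies below the length in each of these 9, and no share for genes of like 3′ UTR length was taken.

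These 3′ UTR summits differed in how well they repeated. The brp summit was among the strongest peaks of all 3 replicates, the fne summit only of replicate 2 and the para summit only of replicate 1. They lay 3324 bp (brp), 2336 bp (fne) and 6950 bp (para) past the last coding base, within the part of the 3′ UTR carried by 7, 9 and 1 annotated transcripts. In the pooled list 18 of the 110 window summits (16.4%) lay in 3′ UTRs, beside 1.69% of that list.

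**Figure D4:**
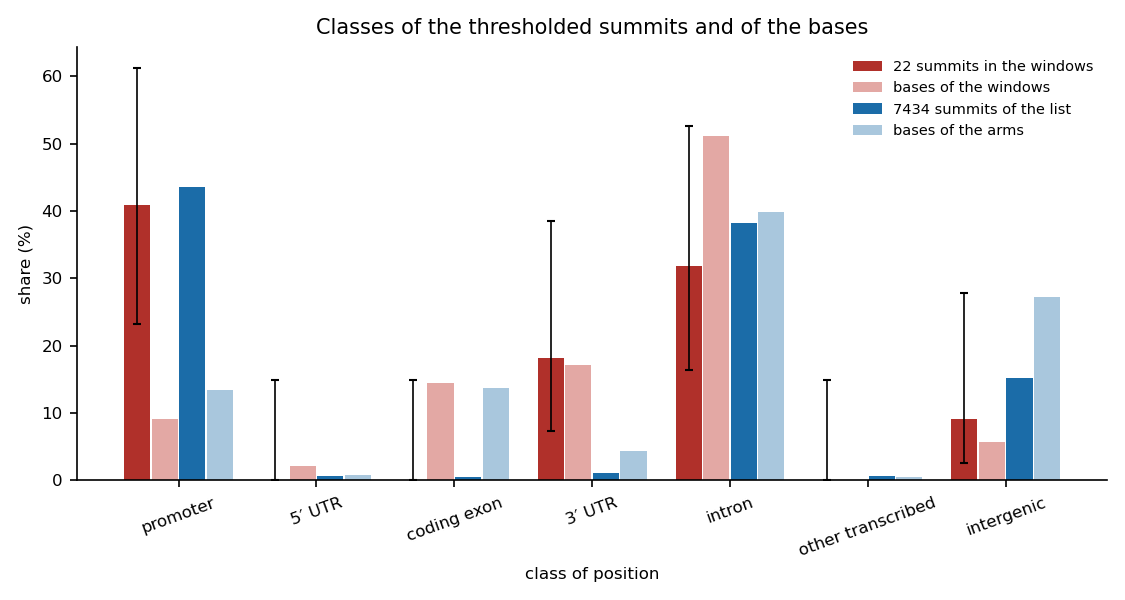
Share (y axis, %) of the 22 summits in the windows (red, with 95% Wilson intervals) and of the 7434 thresholded summits (blue) in each class of position (x axis), beside the share of bases of that class in the windows (pale red) and in the chromosome arms (pale blue). The 3′ UTR bar of the windows is 18.2%, close to the 17.2% of their bases and above the 1.12% of the list.

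Sequence letters gave few common features among the 22 sites. Motifs were searched on both strands of the 200 bp centred on each summit, and are matches of letters only. GAGAG, the core of the GAGA factor's element, was in 8 of 22 windows (36.4%), beside 28.1% of all thresholded windows and 22.4% of windows 1000 bp away. In windows of 100 bp it was in 6 (27.3%, beside 14.1%), and in windows of 400 bp in 16 (72.7%, beside 49%). Within 200 bp, the E-box CAGCTG was in 4 (18.2%, beside 9.39%), at para, where it was in 2 windows, nrv3 and futsch. TCAGT, part of the initiator, was in 5 (22.7%, beside 31.1%), and TATAAA in 3 (13.6%, beside 24.8%). CACACACA was in 1, at the elav summit of rank 717, where GAGAG was found 4 times. The futsch promoter was the 1 window with TGANTCA.

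None of the 22 held TATCGATA, the core of the DREF element (3.19% of the list), GAGAGAGA (2.43%), CAGGTG (5.08%), CAGGTAG (0.794%) or GGTCACACT (1.51%). Of the 11 motifs searched, 7 windows held none, among them those of the strongest elav and brp summits and of scrt. The GC content of the 22 windows ran from 27.5% to 58.5% with a median of 44.5%, beside 43.5% in the list, and was 36.5% at the strongest elav site. GAGAG overlaps GAGAGAGA, and TATCGATA overlaps the shorter words described next.

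Words of 6 letters that were most frequent at the summits of the whole list relative to its flanks were chosen after the data were seen. The 8 kept were CGATAG (in 5.1% of the list's windows of 100 bp), CCGATA (in 4.49% of them), CCCCCG (in 3.74% of them), TATCGA (in 7.02% of them), ACCCGA (in 3.83% of them), ATCGGG (in 4.8% of them), CGATAC (in 3.77% of them) and CCCCGA (in 4.13% of them), and several overlap each other. At least 1 was present in the 100 bp around 5 of the 22 summits (22.7%), beside 23.2% of the list and 12.7% of the flanks. The 5 were elav at 520660 and 521974, Syt1, the strong nSyb site and nrv3. The strongest elav and brp sites held none. Because the words were chosen against these same flanks, the gap between the list and its flanks was built in.

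Runs of letters shared by pairs of 101-base windows were compared, leaving out pairs with a brp site. The longest was TTCGGATTCGGA, at the Syt1 and the strong nSyb sites printed above, which ranked 180 and 184. It was in 11 of the 7434 thresholded windows (0.148%) and in 3 of 14868 flanking windows (0.0202%). The single unit TTCGGA was in 5.6% of the thresholded windows, 7% of the 1000 strongest and 3.81% of the flanks. The pair was picked out after its letters were seen, so this is a description of those sites only.

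Other genes of the nervous system, 109 in 7 lists by role, give the setting for the 10 genes. Of these, 48 (44%) were bound at the promoter in the thresholded list, beside 22.8% of all coding genes, and 76 (69.7%) had one in their window, beside 39.6%. The replicates' strongest peaks gave 48, 51 and 48 genes bound at the promoter (49 ± 1.73). Their median span was 24 kb, and among coding genes of 20 to 50 kb 49.4% and 76.3% had such summits. The 50% of the 10 genes bound at the promoter, within 500 bp of a TSS, lay near both of these shares. Their 90% with any summit, 9 of 10 genes, lay above both. Within 200 bp, 39 of the 109 other genes and 1 of the 10 were bound, beside 18.1% of all coding genes. Neither difference was tested.

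Among the lists with roles like those of the 10 genes, genes of synaptic vesicles and release, the relatives of Syt1 and nSyb, were bound at 7 of 21 promoters (33.3%). The strongest were shi, which encodes dynamin (rank 1870), the vesicle chaperone gene Csp (rank 2200) and the complexin gene cpx (rank 2879). Genes of the active zone and synaptic adhesion, the setting of brp, were bound at 8 of 17 (47.1%), with the neurexin gene Nrx-1 at rank 561, the teneurin gene Ten-m at rank 1426 and the vesicle priming gene unc-13 at rank 1716. No vesicle gene thus had a promoter summit as strong as that of elav.

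Ion channel and sodium pump genes, the setting of para and nrv3, were bound at 9 of 16 promoters (56.2%). The potassium channel gene Sh had a summit of rank 103 (signal 2067; ranks 75, 167 and 106 in the replicates), 88 bp upstream of a TSS, close in rank to the elav promoter summit. The ankyrin gene Ank2, which is also in the axon list, followed at rank 664 and the potassium channel gene Shaw at rank 1359. Axon guidance and cytoskeleton genes, the setting of futsch, were bound at 14 of 21 (66.7%), and their median span was 40.4 kb. Replicate 1's strongest peaks gave 11 of 21, and 10 of 16 for the ion channel genes. The axon list was led by the kinesin gene unc-104 at rank 62, whose promoter summit is shared with CG42392 and CG5348, and the spectraplakin gene shot at rank 531.

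Neuronal regulators, the setting of elav, fne, scrt and nerfin-1, were bound at 5 of 11 promoters (45.5%). The strongest was msi, encoding the RNA-binding protein Musashi, at rank 193 (signal 1528; ranks 210, 184 and 205), followed by the zinc finger genes lola (rank 654) and jim (rank 1534). Proneural and neuroblast genes, which act earlier than these, were bound at 3 of 14 (21.4%), a share near that of all coding genes, and their median span was 3.34 kb. The 3 were the cell fate genes numb (rank 946) and brat (rank 2023) and the Snail-family gene wor (rank 6023), a relative of scrt. Glial genes, which mark the other main cell class of the nervous system, were bound at 3 of 11 (27.3%), namely the blood-brain barrier receptor gene moody (rank 203), the septate junction gene Gli (rank 1684) and loco (rank 6043), whose summit is shared with wake. Strong promoter summits therefore occurred in neuronal, glial and axonal lists.

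**Figure D5:**
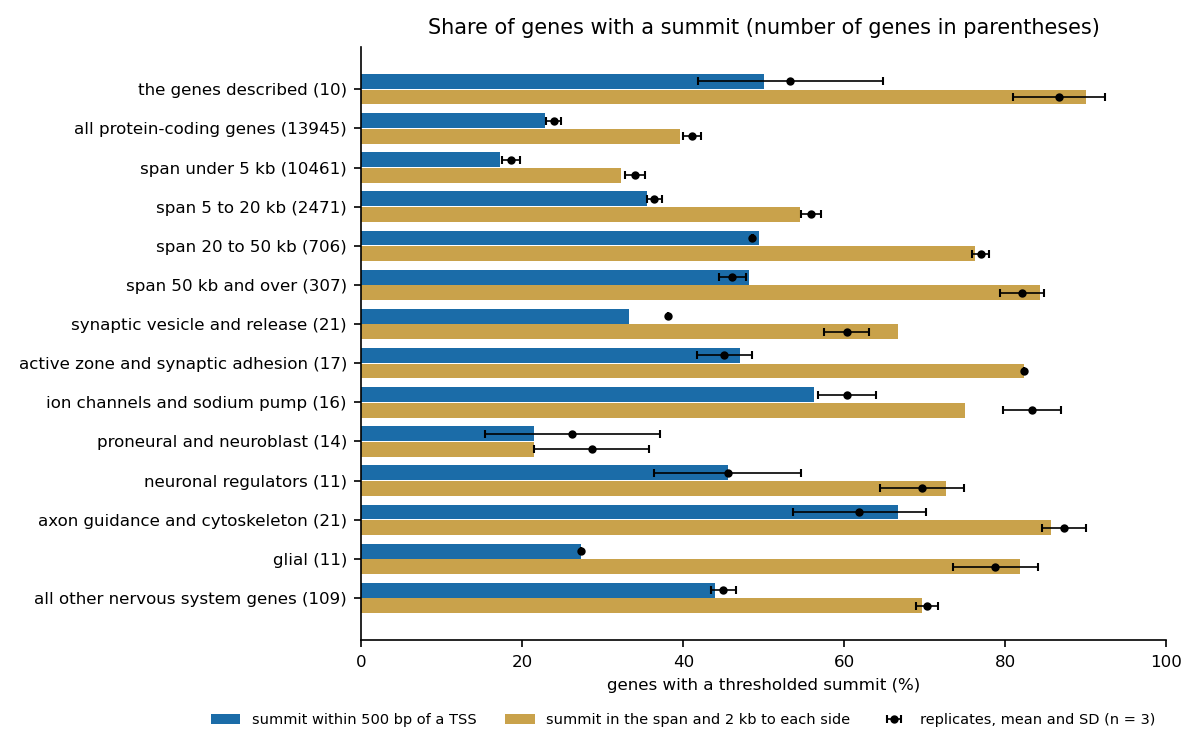
Share of genes (x axis, %) bound at the promoter in the thresholded list (blue) or with any summit in the span and 2 kb to each side (gold), for the genes described, all coding genes, coding genes by span and 7 lists of nervous system genes, with the number of genes in parentheses. Points and whiskers give the mean and SD of the shares from the strongest peaks of 3 replicates. The 10 genes stand at 50% and 90%, and coding genes of 20 to 50 kb at 49.4% and 76.3%.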

How the data were processed

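ChIP-seq of GFP-tagged CG13894 in whole embryos was analysed from the deposited peak lists of 3 replicates, the pooled list and the thresholded list, all on dm6. Per the labels' file notes, the authors called peaks from every replicate alignment and from the pooled alignments, with a control, and derived the thresholded list from these. What aligner, peak caller, settings and cut were used is not given in the sources used here, nor are read counts, so the precision that depth gives is unknown. The deposited signal is the peak caller's own value per peak, and was used to rank peaks within a list. The deposited −log10 q-value is capped and was not used further. The deposited summit offset was added to the peak start, giving 1-based positions.

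The age field holds a value that no embryo can have, so the age comes from the source description. The control library and signal tracks were not used here. Genes and TSSs came from the annotation of Ensembl release 115 on the Release 6 assembly, without transposons and pseudogenes: 17896 genes, 13945 of them coding, and 23307 TSSs. On this build 30540 of 30593 start codons (99.8%) read ATG. A summit was a promoter summit within 500 bp of a TSS, and otherwise took the first class that held it: 5′ UTR, then coding exon, then 3′ UTR, then intron, then other transcribed, then intergenic. A replicate's value is that of its peak containing the summit. The 7434 strongest peaks of each replicate gave means and SDs (n = 3), and intervals are 95% Wilson intervals that cover counting error only. The highest signal of the list, 36459, lay 717 bp from the CG13894 TSS.

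No test was run: the design has 1 group, and the genes, lists and motifs were chosen with earlier results of these data known. All 10 genes are named. Of each other list up to 3 genes with the strongest promoter summits are named, as are the genes at or nearest to a thresholded summit in a window. Alternatives were promoter distances of 200 and 1000 bp, flanks of 0, 1 and 5 kb, 1 TSS per gene, the stronger 50% of the list, the pooled list, motif windows of 100 and 400 bp and leaving out each replicate. Counting of summits was tested on simulated positions. Python 3.11.15, NumPy 2.4.6, SciPy 1.17.1 and matplotlib 3.10.9 were used.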

Additional observations from a re-analysis of the deposited data

How the results depend on the processing

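Of 47 other settings tried, 25 left their count or share within the limits set for no change (1.5 times the count, or 1 SD over replicates) and 22 moved it. The genes bound at the promoter, beside the share of all coding genes, numbered 1 within 200 bp (18.1%), 3 with 1 TSS per gene (20.5%), 3 in the stronger 50% of the list (14.2%), 10 in the pooled list (38.5%) and 3 to 4 when a replicate was left out (17.5% to 17.8%). The genes with a summit in the window numbered 7 to 8 when a replicate was left out (32.5% to 32.9%). The summits numbered 14 without flanks (0.052 per kb), 13 in the stronger 50% of the list and 13 to 16 when a replicate was left out. Those lists hold 67.9% to 71.1% of the thresholded peaks by construction. The promoter share of the summits was 13.6% within 200 bp (33.8% of the list), 50% within 1000 bp (53.6%) and 36.4% with coding TSSs only (40.4%). Of the other nervous system genes, 31 were bound in the stronger 50% of the list (14.2% of coding genes) and 35 to 37 when a replicate was left out (17.5% to 17.8%). In 100 bp windows the motif counts, beside the share of the list's windows, were 0 for CACACACA (3.54%), 0 for CAGCTG (4.36%), 1 for TATAAA (13.8%) and 2 for TCAGT (16.3%). In 400 bp windows they were 16 for GAGAG (49%), 5 for CACACACA (15.1%), 7 for TATAAA (41.3%) and 10 for TCAGT (51.8%). For the words of 6 letters, a 200 bp window, chosen after seeing the data, gave 7 of 22 (39.1% of the list). Where no reason follows from how an alternative is built, the cause was not tested. No paired analysis was possible because all samples belong to 1 group. The unknown depth, the lists' end at 30000 peaks, and the small numbers (10 genes, 22 summits) limit what the counts can show.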

Other observations

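Below the threshold the windows held 88 further summits of the pooled list, between 3 at nSyb and 25 at para. Of these, 42 (47.7%) lay in a listed peak of all 3 replicates, beside 47% of the 22566 pooled summits below the threshold, 28 lay in those of 2 and 18 in those of 1. The strongest was at nrv3, 1720 bp upstream of its TSS (pooled rank 7509; ranks 6582, 12737 and 7058). At para it was an intron summit at 16515633 (rank 7844), close to the thresholded one at 16515419, and in replicate 2, which did not list that one, it ranked 5886. At fne it lay in an intron at 12929945 (rank 7805; ranks 5512, 12712 and 11665). At elav it lay 96 bp upstream of arg, at rank 10936, at the far end of the gene from its strong summits. At nSyb it lay 17 bp upstream of GC, at rank 10138. These summits are values below the authors' threshold and no comparison rests on them.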
